A study of Mus musculus with 6 samples.

Results

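The interferon regulatory factors described here are 8 genes of 1 transcription factor family (Irf1, Irf2, Irf3, Irf4, Irf5, Irf7, Irf8 and Irf9). They were chosen by name, by matching the gene IDs of the count table to their symbols, and make up 8 of the 54446 genes of the table. They were followed across 6 RNA-seq libraries of mouse bone marrow-derived macrophages (BMDMs), with 1 library per condition. The cells came from BALB/c mice (male, 6 to 8 weeks old) and were grown for 7 days in medium with 20% L929-conditioned medium, which supplies the macrophage growth factor CSF-1. M0 cells were left unpolarized, M1 cells were polarized for 24 hours with 20 ng/mL IFN-γ plus 50 ng/mL LPS, and M2 cells for the same time with 20 ng/mL IL4. Each state was sequenced as a control, with DMSO, and with the multikinase inhibitor regorafenib (1 µM), given 1 hour before polarization. How long the M0 cells, which were not polarized, were kept with DMSO or regorafenib is not given in the sources used here, and this touches every M0 drug ratio and every comparison with M0. No genetic change was made in any group. All 6 groups share the strain, the growth medium and the absence of a replicate library, and nothing says how many mice gave the cells of a library.

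Interferon regulatory factors bind GAAA-containing DNA elements through a shared N-terminal domain, and they act at separate points of the interferon system. Irf3, Irf5 and Irf7 wait in the cytoplasm until kinases downstream of pathogen sensors phosphorylate them, and then switch on interferon and cytokine genes. Irf9 is the DNA-binding subunit of ISGF3, the STAT-containing complex that type I interferon activates, whereas Irf1 is made anew after IFN-γ and Irf2 competes with it for the same elements. Irf4 and Irf8 bind DNA mostly with partner factors such as Spi1 (PU.1) and shape the identity of blood cells, Irf8 in macrophages and Irf4 in cells that respond to IL4. Transcript counts do not show phosphorylation or nuclear entry, so what follows concerns the amount of each transcript only.

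The libraries held 25359309 to 34898342 counts, of which the 8 genes took 0.064% to 0.239%. The labelled cell type was checked against its markers. All 8 macrophage markers (such as Csf1r, Adgre1 and Lyz2) were above 3 counts in every library, with a summed level of 21900 to 48700 CPM (counts scaled to library size with TMM). That sum, mostly Lyz2, moved with the drug as well: it was 30900 and 48700 CPM in M0 (control, regorafenib), 31600 and 34100 in M1, and 21900 and 33500 in M2, while Fcgr1 had log2 ratios of −1.48, −1.23 and −1.25. Irf4 and Irf8 are also made by lymphocytes and dendritic cells, so those markers were read beside them. Markers of B and plasma cells summed to 0.0774 to 0.228 CPM and those of T and NK cells to 0 to 0.667 CPM, with Pax5, Ms4a1, Cd3e and Ncr1 at 0 in every library. Dendritic cell markers summed to 0.516 to 2.79 CPM in the M0 and M2 libraries and to 32.1 and 39.0 CPM in M1, where Ccr7, a receptor that activated macrophages and dendritic cells both make, held most of it, and Siglech was at 0 throughout. With regorafenib in M2, where Irf4 was higher too, the sum was 0.876 in the control and 2.79 CPM with the drug, mostly Zbtb46 (15 and 59 counts, log2 ratio 2.36). Markers of neutrophils and of fibroblasts also moved with the drug. The neutrophil sum was 84.8 CPM in the M0 control and 158 with regorafenib, with Mpo at a log2 ratio of 0.95, and 88.8 and 132 CPM in M2 (Mpo 0.58). In M1 it was 157 and 110 CPM, with S100a8 at −1.78, and Ly6g was at 0 in every library. The 5 fibroblast markers summed to 10.1 and 21.8 CPM in M0 (control, regorafenib), 24.4 and 31.5 CPM in M1 and 9.61 and 18.9 CPM in M2, most of it Pdgfrb. With regorafenib in M0, 3 of the 4 with enough counts were at least 2-fold higher, where 9.47% of all genes were (Col1a2 1.93, Pdgfrb 0.75). In M1, 1 of 4 was lower (Dcn, −1.26) and none higher, where 3.46% and 1.76% of all genes were. In M2, 1 of 3 was higher (Pdgfrb, 1.10), where 6.15% of all genes were. The part of these macrophage, dendritic cell, neutrophil and fibroblast markers in the drug comparisons was not tested. In bulk RNA, fewer cells that make a transcript and less transcript per cell cannot be told apart.

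All 8 genes had at least 10 counts in every library and passed the filter on low counts, so none is left out below. On GRCm38, Irf1 (ENSMUSG00000018899.16) lies on chromosome 11 from 53770014 to 53778374 and Irf2 (ENSMUSG00000031627.9) on chromosome 8 from 46739732 to 46847458. Irf3 (ENSMUSG00000003184.15) lies on chromosome 7 from 44997648 to 45002848, and Irf7 (ENSMUSG00000025498.15) lies on the same chromosome from 141262706 to 141266481, on the minus strand. The other genes are on the plus strand: Irf4 (ENSMUSG00000021356.10) on chromosome 13 from 30749226 to 30766976, Irf5 (ENSMUSG00000029771.12) on chromosome 6 from 29526625 to 29541871, Irf8 (ENSMUSG00000041515.10) on chromosome 8 from 120736358 to 120756694 and Irf9 (ENSMUSG00000002325.15) on chromosome 14 from 55603571 to 55610030. Irf5 shares 14.1% of its exonic bases with Tnpo3 on the opposite strand, and how reads in shared bases were counted is not given in the sources used here. Irf1, Irf3, Irf7 and Irf9 share between 1.19% and 3.4% of their exonic bases with a neighbour, and Irf2 and Irf8 share none.

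The promoters of 5 members are shown because they carry, or lack, the elements through which IFN-γ, IL4 and inflammatory signals are known to act, while their genes differ widely in response. Each window runs from 250 bases before to 50 bases after the RefSeq start (GRCm38.p6) and is read along the gene: chr11:53769764-53770063 for Irf1, chr8:46739495-46739794 for Irf2, chr7:141266375-141266674 (minus strand) for Irf7, chr8:120736108-120736407 for Irf8 and chr13:30748983-30749282 for Irf4. Capitals mark matches, on either strand, to the interferon regulatory factor element (GAAA, any 2 bases, GAAA), the GAS element TTCNNNGAA through which IFN-γ acts, the wider form that Stat6 prefers (TTC, any 4 bases, GAA), the cAMP-response core TGACG and the kappa B element.
Irf1: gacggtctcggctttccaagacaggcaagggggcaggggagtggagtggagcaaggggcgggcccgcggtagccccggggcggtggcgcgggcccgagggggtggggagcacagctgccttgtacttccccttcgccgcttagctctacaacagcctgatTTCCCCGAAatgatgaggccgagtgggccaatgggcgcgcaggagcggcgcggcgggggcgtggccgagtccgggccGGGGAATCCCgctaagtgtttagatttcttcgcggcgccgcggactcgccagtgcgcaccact
Irf2: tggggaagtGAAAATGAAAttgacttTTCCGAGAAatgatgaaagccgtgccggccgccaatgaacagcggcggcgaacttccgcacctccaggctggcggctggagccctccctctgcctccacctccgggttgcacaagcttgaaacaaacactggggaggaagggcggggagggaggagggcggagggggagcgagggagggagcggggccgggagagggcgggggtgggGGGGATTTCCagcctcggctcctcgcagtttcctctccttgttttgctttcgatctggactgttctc
Irf7: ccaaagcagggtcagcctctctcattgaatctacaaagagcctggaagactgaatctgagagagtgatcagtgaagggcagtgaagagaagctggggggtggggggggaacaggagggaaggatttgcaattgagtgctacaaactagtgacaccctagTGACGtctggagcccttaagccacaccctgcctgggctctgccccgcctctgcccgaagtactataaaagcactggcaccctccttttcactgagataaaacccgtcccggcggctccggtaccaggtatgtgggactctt
Irf8: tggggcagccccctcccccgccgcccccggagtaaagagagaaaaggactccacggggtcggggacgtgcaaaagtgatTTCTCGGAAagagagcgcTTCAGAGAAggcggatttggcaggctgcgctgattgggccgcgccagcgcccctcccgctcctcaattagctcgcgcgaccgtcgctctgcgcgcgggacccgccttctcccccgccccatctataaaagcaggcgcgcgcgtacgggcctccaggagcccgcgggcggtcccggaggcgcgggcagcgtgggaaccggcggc
Irf4: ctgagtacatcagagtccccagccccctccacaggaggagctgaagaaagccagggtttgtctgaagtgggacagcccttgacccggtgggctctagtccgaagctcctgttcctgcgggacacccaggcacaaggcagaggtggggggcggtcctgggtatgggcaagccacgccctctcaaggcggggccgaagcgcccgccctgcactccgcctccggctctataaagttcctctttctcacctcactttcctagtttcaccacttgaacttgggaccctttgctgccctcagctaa

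The Irf1 window holds a GAS element at positions −90 to −82, counted from the RefSeq start, and a kappa B element at −13 to −4. Irf2 holds a GAS element (−224 to −216), a kappa B element (−17 to −8) and the only interferon regulatory factor element among the windows of the 8 members (−241 to −232). Irf8 holds a pair of GAS elements, at −171 to −163 and −153 to −145. The Irf7 window holds the TGACG core alone, at −91 to −87, and the Irf4 window matches none of the patterns. Over all 32851 promoter windows of this length, 3.44% hold the interferon regulatory factor element, 8.3% hold TTCNNNGAA, 6.95% hold the wider Stat6 form, 20.8% hold TGACG, 1.79% hold TGACGTCA, which contains that core, and 8.46% hold kappa B. TTCNNNGAA was present in 3 of the 8 members (Irf1, Irf2 and Irf8), kappa B in 2 (Irf1 and Irf2) and the Stat6 form in 1 (Irf9), and TGACGTCA in none. Irf1, Irf8 and Irf9 each have 2 RefSeq windows, so 11 windows were searched for the 8 members. By window, TTCNNNGAA was in 3 of 11, kappa B in 2 of 11 and each of the other matched patterns in 1 of 11, and the second windows of Irf1, Irf8 and Irf9 matched none of them. A match describes letters only, and the absence of a match says nothing on elements outside the window.

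Irf5 was the most abundant member per length in M0 and M2 cells, and Irf7 in M1 cells. Levels of different genes were compared within a library as TPM (counts per kilobase of merged exons, scaled to the same total in each library), with 95% Poisson intervals of the counts. Irf5 stood at 219 and 170 TPM in M0 control and regorafenib and at 244 and 299 TPM in M2, which was 35.9% to 49.1% of the TPM of the 8 members. Irf7 reached 1100 TPM in the M1 control and 1050 TPM with regorafenib, 61.8% and 61.5% of the members' TPM, followed by Irf1 at 364 and 318 TPM and Irf5 at 144 and 172 TPM. Irf4 was last in 5 libraries, at 0.324 to 3.41 TPM in M0 and M1 and 15.7 TPM in the M2 control. In the M2 regorafenib library it reached 40.7 TPM (interval 38.8 to 42.8), level with Irf7 at 41.6 TPM (39.4 to 44), and Irf9 was last at 28.2 TPM.

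**Figure D1:**
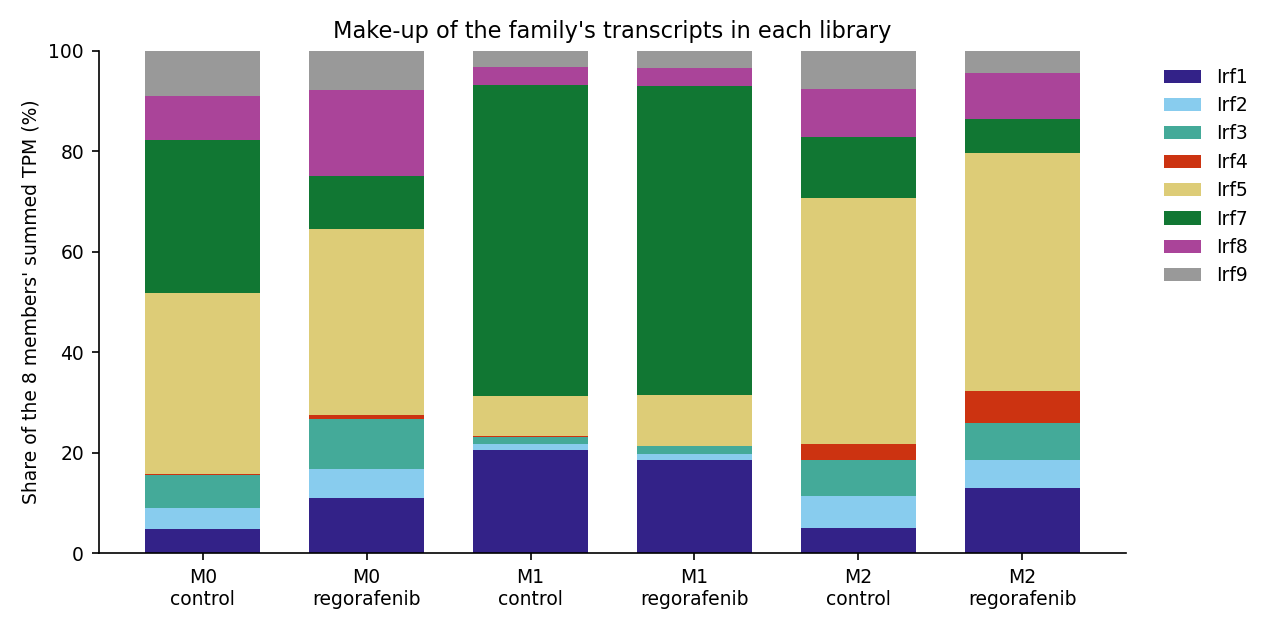
Share of the summed TPM of the 8 members (y axis, percent) taken by each member (coloured segments) in each of the 6 libraries (bars). Irf7 takes 61.8% and 61.5% in the M1 libraries, and Irf5 takes between 35.9% and 49.1% in the other 4.

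Other neighbours in these orders could not be separated by counting error either. In the M0 control, Irf9 (54.0 TPM, 51.9 to 56.1) and Irf8 (53.9 TPM, 52.1 to 55.7) had overlapping intervals, and in M0 with regorafenib Irf1 (49.8 TPM), Irf7 (48.5 TPM) and Irf3 (45.7 TPM) overlapped in that order. In the M2 control, Irf9 (37.5 TPM) and Irf3 (35.5 TPM) overlapped, and in M2 with regorafenib Irf3 (46.3 TPM, 43.8 to 48.9) overlapped with Irf7 (39.4 to 44). Irf2, at no more than 35.7 TPM, was sixth or seventh in every library with merged exon lengths. With the length of the longest transcript in place of merged exons, the first rank stayed with Irf5 or Irf7 as above, the orders in M1 did not change, and ranks changed in M0 and M2. Irf3 and Irf2 then stood above Irf9 in the M2 control, and Irf2 above Irf7 and Irf4 in M2 with regorafenib.

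Across the 6 libraries, 4 members spanned at least 2-fold and 4 less. Irf4 had the widest span of the 8, 87.3-fold between the M1 control and M2 with regorafenib, followed by Irf7 (38-fold), Irf1 (20.1-fold) and Irf9 (2.91-fold). Irf8 (1.8-fold), Irf5 (1.72-fold), Irf2 (1.47-fold) and Irf3 (1.27-fold) spanned less than 2-fold. The levels in the next paragraphs are TMM-scaled CPM, which compare 1 gene between libraries.

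**Figure D2:**
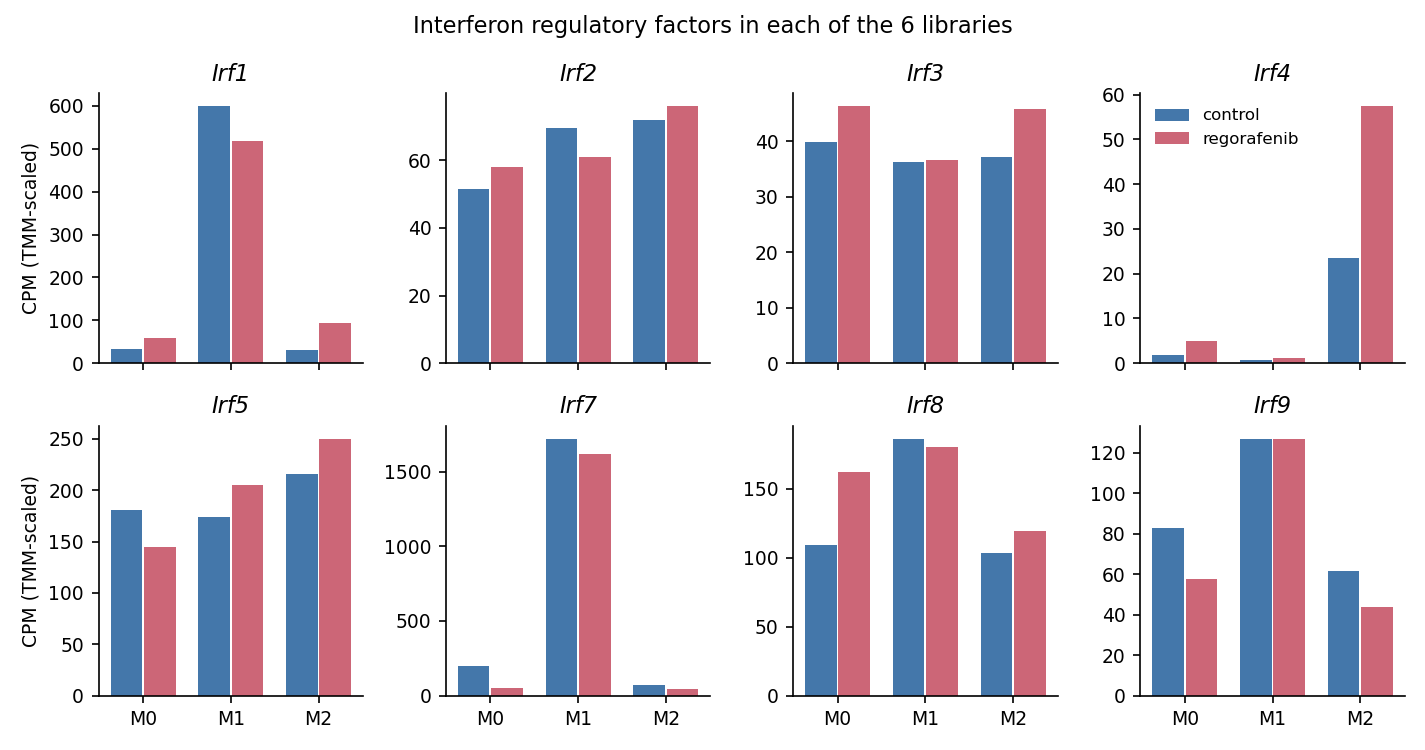
TMM-scaled CPM (y axis, starting at 0 and scaled per gene) of each member in M0, M1 and M2 (x axis), in control (blue) and regorafenib (red) libraries, with 1 library per bar and so no error bar. Irf1 and Irf7 are high in both M1 libraries, Irf4 in both M2 libraries, and Irf3 stays between 36.3 and 46.3 CPM.

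The first comparison asks which members mark a polarized state. A member was counted as past 2-fold when the TMM-scaled levels of 2 libraries differed at least 2-fold, and each log2 ratio has a conditional exact binomial 95% interval that covers counting error only, since no condition has a replicate. Between the M1 and M0 controls, 3 of the 8 members were past 2-fold (Irf1 and Irf7 higher, Irf4 lower), where 37.1% of all genes were. With regorafenib there were 4 (Irf9 higher in addition), where 37.9% of all genes were. Between the M2 and M0 controls there were 2 (Irf4 higher, Irf7 lower), against 12.3% of genes, and with regorafenib 1 (Irf4), against 9.59% of genes. For M1 against M0 these shares are close to the background. The 7 library pairs share libraries: each M0 library stands in both state comparisons and in the regorafenib comparison. Scaling by total counts moved the median of all genes in M1 against M0 from −0.05 to −0.49 in controls and from −0.09 to −0.51 with regorafenib, so M1 ratios are relative to TMM's reference.

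**Figure D3:**
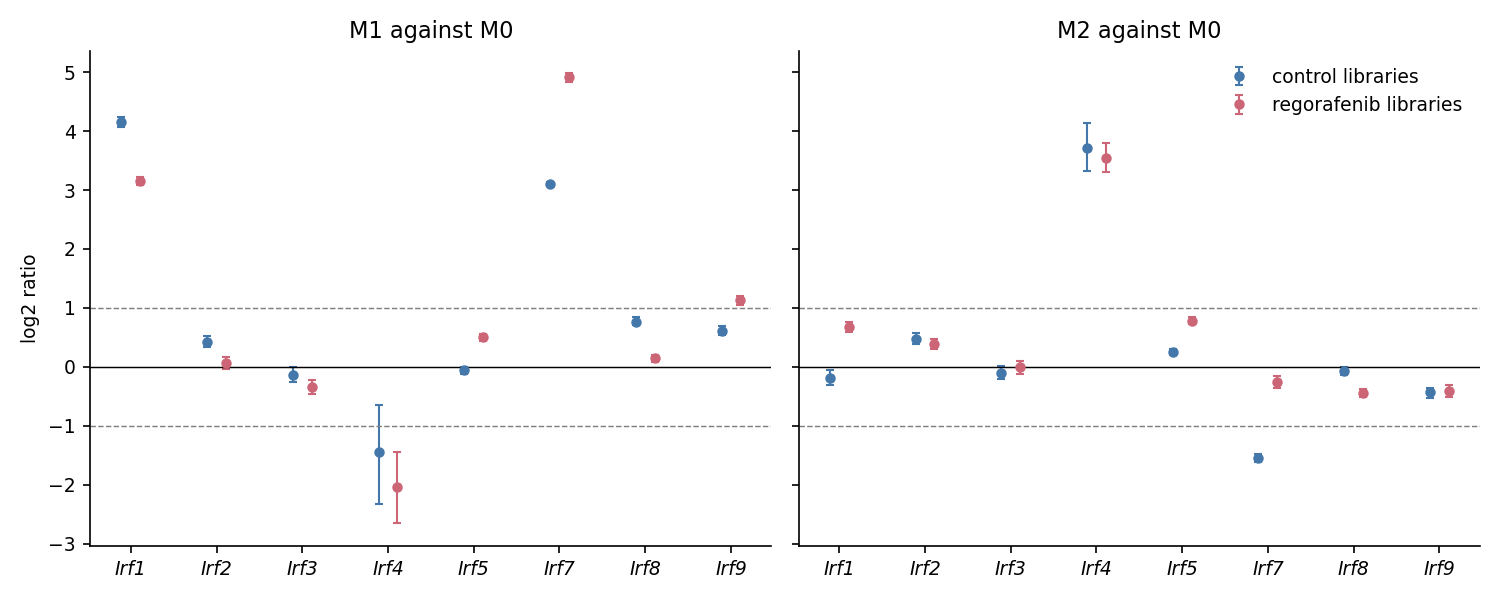
Log2 ratio (y axis) of M1 (left) and M2 (right) to M0 for each member (x axis) in control (blue) and regorafenib (red) libraries. Points are ratios of 2 libraries, bars are 95% intervals of counting error, and dashed lines mark 2-fold; Irf1 and Irf7 lie above the line in M1 and Irf4 in M2 in both treatments.

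The second comparison asks what regorafenib did to each member within a state. In M0, Irf4 was higher and Irf7 lower by at least 2-fold (2 of 8 members, against 20.4% of all genes). In M1 no member was past 2-fold, against 5.22% of genes, and apart from Irf4, whose counts were 17 and 29, the ratios stayed within 0.24 of 0 on the log2 scale. In M2, Irf1 and Irf4 were higher by at least 2-fold (2 of 8 members, against 11.2% of genes). The intervals lay above 0 for 5 members in M0, 1 in M1 and 5 in M2, and below 0 for 3, 3 and 2 members. Most of these differences were under 2-fold, and without replicate libraries their size cannot be set against the spread between cultures.

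**Figure D4:**
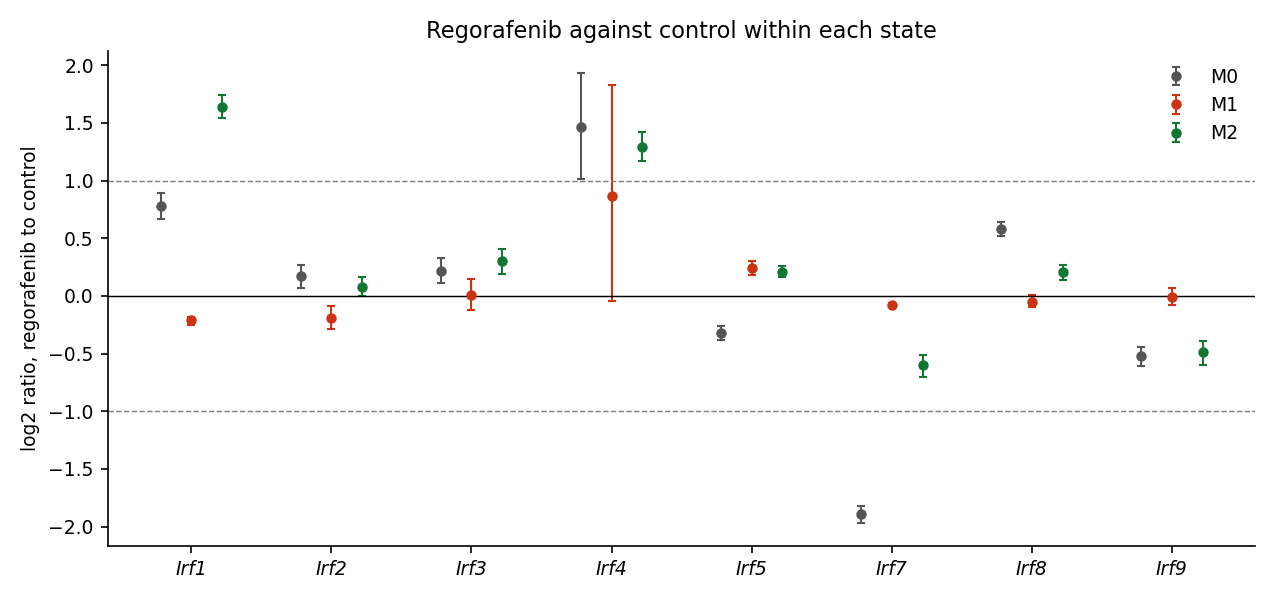
Log2 ratio of regorafenib to control (y axis) for each member (x axis) in M0 (grey), M1 (red) and M2 (green). Points are ratios of 2 libraries, bars are 95% intervals of counting error, and dashed lines mark 2-fold; the M1 points lie near 0 except Irf4, and only Irf1, Irf4 and Irf7 pass the lines.

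Irf3 and Irf5, the factors that wait for a signal, spanned less than 2-fold over the 6 libraries. Irf3 stood at 39.8 and 46.3 CPM in M0 (control, regorafenib), 36.3 and 36.6 CPM in M1, and 37.2 and 45.9 CPM in M2. With regorafenib it was above its control by 0.22 in M0 (interval 0.11 to 0.33) and by 0.30 in M2 (0.19 to 0.41) on the log2 scale, and the M1 libraries differed by 0.01 (−0.12 to 0.15). Irf5, which drives Il12b, Il6 and Tnf downstream of MyD88, stood at 181 and 145 CPM in M0, at 174 and 205 CPM in M1, and at 216 and 250 CPM in M2 cells. Regorafenib went with a lower level in M0 (−0.32, −0.38 to −0.26) and a higher one in M1 (0.24, 0.18 to 0.30) and M2 (0.21, 0.16 to 0.26), so the drug ratios of M1 and M0 differed by 0.56 (0.48 to 0.64). These 2 genes did not pass 2-fold in any of the 7 pairs. For M1 against M0 their ratios depended on the scaling: in controls −0.13 for Irf3 and −0.06 for Irf5 with TMM became −0.58 and −0.50 with total counts, and with regorafenib −0.34 and 0.50 became −0.75 and 0.08.

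Irf7, which responds to interferon and then amplifies it, was the member with the widest drug response in M0. Its counts were 6147 and 1778 in M0 (200 and 53.9 CPM), 44347 and 39101 in M1 (1720 and 1620 CPM) and 2510 and 1265 in M2 (68.8 and 45.2 CPM). The M1 libraries were above every other library, and within each state the control was above the regorafenib library. With regorafenib the level was 3.71-fold lower in M0 (log2 ratio −1.89, −1.97 to −1.82), 1.52-fold lower in M2 (−0.60, −0.70 to −0.51) and 1.06-fold lower in M1 (−0.08, −0.10 to −0.06). The ratio in M1 exceeded that in M0 by 1.81 (1.73 to 1.89). M1 cells held 8.58 times the Irf7 of M0 cells in controls (3.10) and 30.1 times with regorafenib (4.91), where the M0 level was the lower one. M2 cells held 2.91-fold less than M0 in controls (−1.54, −1.61 to −1.47) and 1.19-fold less with regorafenib (−0.25, −0.36 to −0.15). Set against Irf3 within a library and per length, Irf7 was 4.58 times as abundant in the M0 control (4.3 to 4.87) and 1.06 times with regorafenib (0.992 to 1.14), 43.1 and 40.4 times in M1, and 1.68 and 0.899 times in M2. This ratio depends on the gene length used: with the longest transcript it was 3.15 and 0.731 in M0, so that Irf3 stood above Irf7 with regorafenib, and 1.16 and 0.618 in M2.

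Upstream of these factors, 23 sensors, adaptors and kinases were read, all with at least 10 counts. With regorafenib in M0, 1 was at least 2-fold higher and 2 lower, in M1 none, and in M2 1 higher, with medians of 0.19, −0.03 and 0.16 on the log2 scale (0.01 in M1 with total counts), where the medians of all genes were 0.00, −0.02 and −0.03. Over all genes 9.47% were at least 2-fold higher and 10.9% lower in M0, against 4.35% and 8.7% of these, and 6.15% were higher in M2, against 4.35%. Tlr9, the endosomal DNA sensor, had the highest ratio in M0 (68 and 226 counts, 1.63) and M2 (14 and 100 counts, 3.22). Cgas, the cytosolic DNA sensor, had the lowest ratio in M0 (1083 and 324 counts, −1.84). Dhx58, an RNA helicase that responds to interferon, had the lowest ratio in M2 (964 and 429 counts, −0.78). Tbk1 and Ikbke, the kinases that phosphorylate Irf3 and Irf7, differed by at most 0.26 on the log2 scale between control and regorafenib, and in controls their M1 levels exceeded those in M0 (1.67 and 1.65). These kinases were named after their values were seen. Between the M1 and M0 controls, 9 of the 23 were at least 2-fold higher and 3 lower (6 and 7 with total counts), where 17.4% and 19.7% of all genes were.

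The interferons themselves were almost absent from the counts. Of 21 interferon ligand genes, 19 had 0 counts in every library, which allows up to 3 counts, or 0.0822 to 0.124 CPM depending on the library. Ifnb1, the main target of Irf3, had 1 count in each M0 library, 4 and 2 in the M1 libraries and no count in M2, and Ifng held 1 count in the M2 control. No difference in ligand transcripts was detectable at this depth, at the 1 time point taken.

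Irf9 and Stat2, subunits of ISGF3, were lower with regorafenib in M0 and M2. Irf9 stood at 83.1 and 57.9 CPM in M0 (2552 and 1908 counts), 127 and 127 CPM in M1 (3286 and 3053 counts) and 61.5 and 43.6 CPM in M2 (2245 and 1221 counts). It was lower with regorafenib in M0 (−0.52, −0.61 to −0.44) and M2 (−0.49, −0.60 to −0.39), and the M1 libraries differed by −0.01 (−0.08 to 0.07; 0.04 with total counts). The M1 control was above the M0 control by 0.61 (0.54 to 0.69), and with regorafenib by 1.13 (1.05 to 1.21), a ratio that falls short of 2-fold with total counts (0.72). Stat2 went from 4669 to 2573 counts in M0 (−0.96), from 15302 to 13301 in M1 (−0.10) and from 3099 to 1988 in M2 (−0.26).

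Of 18 target genes of ISGF3, 17 were at least 2-fold lower with regorafenib in M0 (18 with DESeq2's size factors) and none higher, with a median log2 ratio of −2.02, where 10.9% of all genes were lower and 9.47% higher. Their ratios ran from −2.95 for Isg15, a ubiquitin-like protein (1245 and 173 counts), to −0.99 for Bst2, which tethers budding virus (3523 and 1901 counts). In M1 none of the 18 was past 2-fold and the median was −0.16. In M2, 6 of 18 were at least 2-fold lower (4 with total counts), with a median of −0.79, where 5.07% of all genes were lower. Rsad2, the antiviral protein viperin, had the lowest ratio in M2 (713 and 198 counts, −1.46) and in M1 (16421 and 8801 counts, −0.80). Against the M0 control, 15 of 18 were higher by at least 2-fold in the M1 control (median 2.33), where 17.4% of all genes were, and 14 of 18 at least 2-fold lower in the M2 control (median −1.79), where 7.61% were. With regorafenib, 18 of 18 were at least 2-fold higher in M1 than in M0 (median 3.90, against 16.3% of all genes) and 6 of 18 lower in M2 (median −0.60, against 5.18%). These pairs share the M0 libraries with the drug comparison. In the M2 control and in M0 with regorafenib, most of the ISGF3 genes thus stood below the same M0 control library.

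The receptors and kinases that carry interferon signals to ISGF3 passed 2-fold with regorafenib about as often as all genes. Of 9 receptors, JAKs and STATs, 1 was at least 2-fold higher with regorafenib in M0 and 1 lower (11.1% each, against 9.47% and 10.9% of all genes), and 1 was higher in M2 (11.1%, against 6.15%). The higher gene was Ifngr1, a chain of the IFN-γ receptor, in both M0 (1634 and 3697 counts, 1.08) and M2 (1647 and 2574 counts, 1.03), whereas in M1 its ratio was −0.15. Between the M1 and M0 controls, 4 of the 9 were at least 2-fold higher, where 17.4% of all genes were, and with regorafenib also 4, against 16.3%. Jak2, which the IFN-γ receptor uses, had 1011 counts in the M0 control and 19989 in the M1 control, a log2 ratio of 4.55. Among 12 negative regulators of these pathways, 3 were at least 2-fold lower with regorafenib in M0 (where 10.9% of all genes were) and none was past 2-fold in M1 or M2. They were Socs1 (63 and 21 counts, −1.69), Usp18 (2357 and 916 counts, −1.47), which is also counted among the ISGF3 targets, and Ube2l6 (3682 and 1510 counts, −1.39), which was named after its value was seen.

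Irf1, the factor made after IFN-γ, was high in M1, and with regorafenib it was above its control in M0 and M2. It held 1040 and 1922 counts in M0 (33.9 and 58.3 CPM), 15489 and 12483 in M1 (599 and 518 CPM) and 1091 and 2605 in M2 (29.9 and 93.1 CPM). Both M1 libraries were above the others by more than 5-fold. With regorafenib the level was 3.12-fold higher in M2 (log2 ratio 1.64, 1.54 to 1.74), 1.72-fold higher in M0 (0.78, 0.67 to 0.89) and 1.16-fold lower in M1 (−0.21, −0.25 to −0.18). The M2 ratio exceeded the M0 ratio by 0.86 (0.71 to 1.0) and the M1 ratio by 1.85 (1.74 to 1.96). The M1 control was 17.7-fold above the M0 control (4.15) and the M1 regorafenib library 8.88-fold above its M0 counterpart (3.15).

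Irf2, which competes with Irf1 and whose window also holds GAS and kappa B letters, varied little. Its levels were 51.5 and 57.9 CPM for M0, 69.6 and 60.8 for M1, and for M2 71.8 and 75.9. The M1 control was above the M0 control by 0.43 (0.34 to 0.53), but by −0.01 with total counts, and the drug ratios were 0.17, −0.19 and 0.08. The balance of Irf1 to Irf2 per length was 1.22 in the M0 control (1.13 to 1.32), 16.0 in the M1 control (15.3 to 16.8) and 0.774 in the M2 control (0.721 to 0.831). With regorafenib it was 1.87 in M0 (1.76 to 2.0), 15.9 in M1 (15.0 to 16.7) and 2.28 in M2 (2.15 to 2.42). Transcripts of Irf2 outnumbered those of Irf1 per length in the M2 control library alone among the 6. Of the 3 cofactors that bind Irf2, Irf2bpl was lower with regorafenib in each state (−1.13, −0.77 and −0.93), while Irf2bp2 (0.70, 0.29 and 0.41) and Irf2bp1 (0.40, 0.03 and 0.27) had ratios above 0. These cofactors were named after their values were seen.

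Genes known as Irf1 targets were higher in M1, and most stayed within 2-fold with regorafenib. Between the M1 and M0 controls, all 18 were higher by at least 2-fold (median 3.46), where 17.4% of all genes were, from 1.77 for the protease gene Casp1 to 13.61 for Nos2, the inducible nitric oxide synthase (39 and 410649 counts). With regorafenib in M2, where Irf1 was 3.12-fold higher, 2 of the 15 targets with enough counts were at least 2-fold higher and none lower, with a median of 0.39, where 6.15% of all genes were higher. They were Ciita, the master regulator of MHC class II genes (154 and 1144 counts, 3.28), and the NADPH oxidase subunit gene Cybb (4757 and 17421 counts, 2.26). In M0 the same 2 were higher (3.77 and 2.0), Socs1 was lower and the median of 16 targets was −0.21, where 9.47% of all genes were higher and 10.9% lower, shares that these counts are near. The antigen-processing genes Tap1, Psmb8 and Psmb9, named after their values were seen, had ratios of −0.80, −0.88 and −0.39 in M0 and 0.17, −0.12 and 0.65 in M2. Tap2, Tapbp and B2m, of the same process and likewise named afterwards, had −0.13, 0.01 and 0.29 in M0 and 0.18, 0.72 and 0.39 in M2. In M1, Nos2 had the lowest ratio (410649 and 221627 counts, −0.79) and Il12b, a subunit of IL-12 and IL-23, the highest (10147 and 26829 counts, 1.5).

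**Figure D5:**
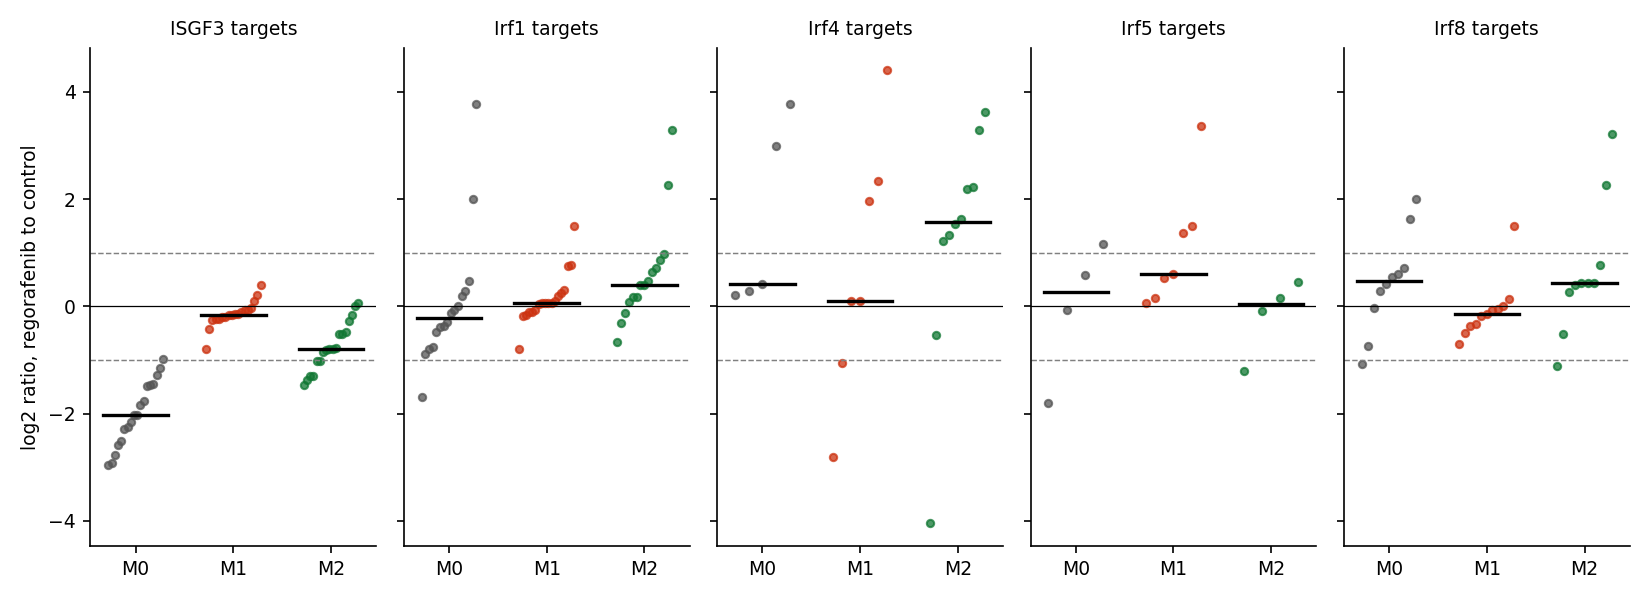
Log2 ratio of regorafenib to control (y axis) for each gene (points) of 5 lists of target genes in M0 (grey), M1 (red) and M2 (green), for genes that reached 10 counts in either library of the pair. Black bars are list medians and dashed lines mark 2-fold; the ISGF3 targets have medians of −2.02, −0.16 and −0.79, and Ciita, Cybb and Il12b stand in more than 1 list.

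Irf4, the member that answers to IL4, was higher with regorafenib in M0 and M2. It held 55 and 162 counts in M0 (1.79 and 4.91 CPM), 17 and 29 in M1 (0.658 and 1.20 CPM) and 855 and 1607 in M2 (23.4 and 57.4 CPM). The regorafenib library was above its control in 3 of 3 states, both M2 libraries were above all others, and both M1 libraries were below all others. The level was 2.74-fold higher with regorafenib in M0 (1.46, 1.01 to 1.93) and 2.45-fold higher in M2 (1.29, 1.17 to 1.42). In M1 the ratio was 0.87 with an interval from −0.04 to 1.83, so a difference was not detectable at this depth. The intervals of the differences between the drug ratios of the states all spanned 0 (M2 minus M0 −0.16, −0.62 to 0.30). IL4 went with a 13.1-fold higher level in controls (3.71, 3.32 to 4.13) and 11.7-fold with regorafenib (3.55, 3.31 to 3.79). IFN-γ and LPS went with a 2.72-fold lower level in controls (−1.44, −2.32 to −0.64), which was −0.75 with 1 CPM added to both values, and 4.08-fold lower with regorafenib (−2.03, −2.65 to −1.45).

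Irf8, which with Spi1 keeps macrophage identity, stood at 109 and 162 CPM in M0, at 186 and 180 CPM in M1, and at 103 and 119 CPM in M2 cells. It was 1.49-fold higher with regorafenib in M0 (0.58, 0.52 to 0.64) and 1.15-fold higher in M2 (0.21, 0.14 to 0.27), and in M1 the ratio was −0.05 (−0.10 to 0.01). The M1 control was above the M0 control by 0.77 (0.71 to 0.84; 0.33 with total counts), and with regorafenib by 0.15 (−0.26 with total counts). Spi1 differed from control by 0.17, −0.03 and −0.11 with regorafenib in M0, M1 and M2. Per length, Irf4 was 0.0237 times as abundant as Irf8 in the M0 control, 0.0051 times in the M1 control and 0.326 times in the M2 control (0.303 to 0.352). With regorafenib it was 0.0436, 0.00962 and 0.694 times as abundant (0.653 to 0.736 in M2). With the longest transcript as length the M2 ratios were 0.165 and 0.351, and the intervals do not cover the choice of length. Irf4 also competes with Irf5 for MyD88, and its ratio to Irf5 per length was 0.0642 in the M2 control and 0.136 with regorafenib, 0.00585 and 0.02 in M0, and 0.00225 and 0.00348 in M1.

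Of 8 partner factors of Irf4 and Irf8, Spi1 included, 7 had enough counts. None was past 2-fold with regorafenib in M0, where 9.47% of all genes were higher and 10.9% lower. In M1, 1 was at least 2-fold higher and 1 lower, where 1.76% and 3.46% of all genes were. In M2, 1 was higher, where 6.15% of all genes were. Batf3 had the highest ratio to control in M2 (95 and 194 counts, 1.41), with 1.32 in M1 (15 and 35 counts) and −0.82 in M0 (23 and 14 counts). Bcl6, a repressor, had the lowest ratio in M1 (2030 and 614 counts, −1.62). Batf2, which pairs with Irf1 and Irf8 in activated macrophages, had 130 counts in the M0 control and 2776 in the M1 control (4.67).

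The genes that IL4 is known to raise through Irf4 did not move as 1 block. Between the M2 and M0 controls, 8 of 9 were at least 2-fold higher (median 4.01), where 4.69% of all genes were. Between the M1 and M0 controls, 6 of 8 were higher and 2 lower (median 4.41), where 17.4% and 19.7% of all genes were. With regorafenib in M2, 8 of 10 were at least 2-fold higher than in the M2 control and 1 lower, with a median of 1.57, where 6.15% and 5.07% of all genes were. The highest was the chemokine gene Ccl17 (4 and 38 counts, 3.63), and among genes with at least 100 counts Ciita (3.28). The gene that stayed within 2-fold was Mrc1, the mannose receptor (24237 and 12895 counts, −0.53), named after its value was seen. In M1, Ccl17 had the highest ratio (19 and 375 counts, 4.40).

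The targets of Irf8 and Irf5 were read in the same way. Of 10 Irf8 targets with enough counts, 2 were at least 2-fold higher with regorafenib in M0 and 1 lower (median 0.48), and in M2 likewise 2 and 1 (median 0.43). Over all genes 9.47% were higher and 10.9% lower in M0, so the count of lower targets is near the background, and 6.15% and 5.07% in M2. Cybb led in M0 (9026 and 38857 counts, 2.0) and Tlr9 in M2 (3.22), while Cd180 was lowest in M0 (11022 and 5587 counts, −1.08) and Klf4 in M2 (6702 and 2362 counts, −1.12). Of the 7 Irf5 targets, 3 were at least 2-fold higher with regorafenib in M1 (median 0.61, where 1.76% of all genes were higher), with Il12b at 1.5 as the highest among genes with at least 100 counts, while Irf5 itself was 1.18-fold higher. Tnf, the gene of the cytokine TNF, was lower in M0 (2029 and 623 counts, −1.81). Several genes stand in more than 1 list, so the lists are not independent.

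To compare more than 1 library per side, state and treatment were fitted as additive terms over the 6 libraries (edgeR's quasi-likelihood test with Benjamini-Hochberg adjustment over 14110 genes). The fit has 2 residual degrees of freedom, and its residual holds the difference between states in their response to the drug together with the spread between libraries. For M1 against M0, 4 members passed an adjusted p of 0.05, where 36.7% of genes did: Irf1 (log2 fold change 3.78, adjusted p = 0.00271), Irf7 (4.02, adjusted p = 0.00258) and Irf9 (0.94, adjusted p = 0.0131) rose and Irf4 fell (−1.71, adjusted p = 0.0057). For M2 against M0, Irf4 rose (3.62, adjusted p = 0.0124), and no other member passed, where 0.198% of genes did. For M1 against M2, 5 passed, where 37.5% of genes did: Irf1 (3.46), Irf7 (5.0), Irf8 (0.78) and Irf9 (1.35) were higher in M1 and Irf4 was lower (−5.33, adjusted p = 0.000277). Without the M0 regorafenib library, Irf9 lost its call for M1 against M0 (0.79) and Irf7 passed for M2 against M0 (−1.66). Irf8 lost its call for M1 against M2 without the M1 control (0.55), the M2 control (0.80) or the M2 regorafenib library (0.75), and passed for M1 against M0 without the M1 regorafenib library (0.74).

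For regorafenib across the 3 states, no member and 0.0% of genes passed. Of 14110 genes, 1637 had an unadjusted p under 0.05, and DESeq2 called 296 genes. Irf4 had the lowest adjusted p of the 8 (log2 fold change 1.27, higher with regorafenib in 3 of 3 states, adjusted p = 0.302), followed by Irf7 (−0.83, adjusted p = 0.433), Irf1 (0.75, adjusted p = 0.448) and Irf9 (−0.33, adjusted p = 0.448). Over the 9 alternatives, Irf4 had a log2 fold change of 1.18 to 1.38 and an adjusted p of 0.00096 to 0.632, and it passed in 4 of them. They were DESeq2 (1.27), no filter on low counts (1.25), and the fits without the M1 control or the M1 regorafenib library (1.38 in both). Irf1 and Irf7, whose drug ratios differ most between states, passed in none of the 9, and their values depended on which states entered the drug contrast. Leaving out either library of a state takes that state out of this contrast. The log2 fold change of Irf1 was 0.29 without either M2 library and 1.23 without either M1 library, and that of Irf7 was −0.32 without either M0 library and −1.24 without either M1 library.

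The same fit was read for the lists in the state comparisons only, since for regorafenib it called no gene at all. Of the 18 ISGF3 targets, 17 rose in M1 against M0 and all 18 in M1 against M2, where 18.5% and 18.9% of all genes did, while none passed for M2 against M0 (median −1.32), where 0.198% of all genes did. Of the 18 Irf1 targets, 17 rose in M1 against M0, against the same 18.5%. Of the 10 Irf4 targets, 5 rose in M2 against M0, where 0.184% of all genes did, and in M1 against M0 5 rose and 2 fell, where 18.5% and 18.2% did. Among the upstream sensors and kinases, 10 of 23 rose and 6 fell in M1 against M0, where 18.5% and 18.2% of all genes did.

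For the 3 members that span more than 4-fold in scaled level, the genes with the most similar profile were sought among 1687 genes with a mean of at least 10 CPM and the same span. Likeness was the root mean square difference between mean-centred log2 CPM over the 6 libraries. Closest to Irf7 was Slc16a3, a lactate transporter gene, with a difference of 0.10 (Pearson's r = 0.999 over 6 libraries of 3 states), followed by Gm12250 (0.18), Smpdl3b (0.24), the antiviral gene Mx1 (0.26) and Bst1 (0.28). Slc16a3 stood at 102 and 30.2 CPM in M0, at 1030 and 799 CPM in M1, and at 37.4 and 23.0 CPM in M2. Closest to Irf4 was the transcription factor gene Egr2 (0.35), at 8.56 and 11.9 CPM in M0, at 2.32 and 3.78 CPM in M1, and at 79.8 and 133 CPM in M2, followed by the beta-glucan receptor gene Clec7a (0.43), Itgb3 (0.81), Tbc1d16 (0.95) and Daglb (1.07). Closest to Irf1 were Slc31a2, a copper transporter gene (0.35), Ptch1 (0.37), Ifitm1 (0.39), Birc3 (0.40) and Ppfibp2 (0.41). A high r is common here, since the points share 3 states and 6 libraries.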

How the data were processed

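RNA of mouse BMDMs was sequenced from stranded mRNA libraries. The authors deposited raw counts per gene. Per the labels and the study's methods, cutadapt 2.4 removed adapters, and STAR 2.7.2a aligned the reads (GRCm38) and counted them per gene. Which strand column was taken is not given in the sources used here, so reads of overlapping genes cannot be assigned with certainty. Gene names, positions and exon lengths came from Gencode M21: 53229 of 54446 gene IDs matched with version, 1180 without it and 37 not at all.

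The members and the gene lists were chosen with earlier results of these data known. Counts were scaled with TMM (edgeR 4.0.16, R 4.3.3) over 6 libraries. Log2 ratios of library pairs (0 replaced by 0.5) have conditional exact binomial 95% intervals, computed in Python 3.11.15 with scipy 1.17.1. A pair's background is the genes with at least 10 counts in 1 of its libraries. Intervals cover counting error only, and with 1 library per condition no pair was tested. NOISeq was not used, because it calls genes from simulated replicates. The additive fit used edgeR's quasi-likelihood test on genes kept by filterByExpr. Its alternatives were DESeq2 1.42.0, other size factors, no filter and each library left out. Its p-values rest on a residual that holds the difference between states in their response to the drug. That residual also holds the spread between libraries, which may be technical, and the fit cannot separate them. The fitting was also run on simulated counts with known drug effects, equal in every state, and no difference between states. That run says nothing on genes whose drug response differs between states.

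All 8 members are named in every result. From a list, the genes with the highest and lowest ratio among those with at least 100 counts are named, with Stat2, Ifnb1, Ifng, Spi1, Ciita, Nos2 and Socs1, and the 5 genes most like each member that spans at least 2 on the log2 scale (4-fold). Some genes that the rule names are not reported here, though they stay in the counts of their lists. Genes outside this rule were named after their values were seen, as were the ratios between members. Promoters are RefSeq windows on GRCm38.p6.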

Additional observations from a re-analysis of the deposited data

How the results depend on the processing

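No fit with replicate numbers as a block was made, because each condition has 1 library and the labels give none; the additive fit compares control and regorafenib within states. At a fold of at least 1.5, 3 members passed for regorafenib in M0, 1 in M1 (none at 2-fold) and 3 in M2. For M1 against M0 in controls 5 passed, and for M2 against M0 with regorafenib 3. A lower threshold admits more by construction. The share of all genes at this fold was not computed, so these counts cannot be set against a background. In the additive fit, 1 member (Irf4) was called for regorafenib with DESeq2 and with no filter on low counts. With each library left out in turn, 0 to 1 members were called for regorafenib (1 without the M1 control or the M1 regorafenib library) and 1 to 2 for M2 against M0 (2 without the M0 regorafenib library). Calls for regorafenib over all genes went from 0 to 726 and 814 without the M1 control and the M1 regorafenib library, 296 with DESeq2 and 333 with no filter; the cause was not tested. For M2 against M0 they went from 28 to between 77 and 294 with a library left out, 413 with DESeq2 and 408 with no filter. Counting genes with 1 count in a library raised the background from 20.4%, 5.22% and 11.2% to 31.4%, 19.7% and 24.8% for regorafenib in M0, M1 and M2. Scaling changed the sign of 5 ratios, all of them small or in M1: with total counts Irf9 for regorafenib in M1 (0.04), Irf2 for M1 against M0 in controls (−0.01) and with regorafenib (−0.34) and Irf8 there (−0.26), and with DESeq2's size factors Irf3 for M2 against M0 with regorafenib (0.01). The median of the 8 members for M1 against M0 with regorafenib was 0.32 with TMM and −0.09 with total counts. Depth limits Irf4 in M1 and the interferon ligands, which are near 0 counts.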
